A study of Saccharomyces cerevisiae with 8 samples.

Results

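The ATG genes encode the machinery of autophagy, in which a double membrane closes around cytoplasm or organelles and delivers them to the vacuole for breakdown. The set consisted of every gene named ATG plus a number in the deposited expression table, which gave 31 of its 7105 genes. In budding yeast both protein kinase A (PKA), which answers glucose through cAMP, and the kinase complex TORC1, which answers nitrogen, hold autophagy back. The Atg1 kinase complex starts the process, Atg9 vesicles and a lipid kinase supply the membrane and its mark, a pair of ubiquitin-like conjugation systems attaches Atg8p to the membrane, receptors such as Atg32p for mitochondria choose the cargo, and vacuolar enzymes and exporters finish it. Transcript level is only one layer of this control, since the kinases act on Atg proteins directly.

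The libraries came from 8 cultures of the wild-type diploid BY4743, 2 in each of 4 groups, all carrying a plasmid of the high-copy URA3 series pRS426. Cells of 3 groups had been held for 24 h in 25 µg/ml ethidium bromide (EtBr) and lacked mitochondrial DNA (ρ0): ρ0 PDE2 cells overexpressed the cAMP phosphodiesterase Pde2p, which lowers PKA activity, ρ0 TIP41 cells overexpressed Tip41p, which acts in the Tap42p arm of the TORC1 pathway, and ρ0 vector cells carried the empty plasmid. The ρ+ vector cells carried the empty plasmid, received no EtBr and kept their mtDNA. All cultures grew in SC-Ura medium, the ρ+ vector cells for a minimum number of divisions rather than for 24 h. Exposure to EtBr, loss of mtDNA and this difference in culture scheme therefore cannot be told apart. A high-copy plasmid can vary in number between cells of a culture. The replicates of a group were made by different experimenters. The RNA came from whole cultures, so that fewer cells with a transcript and less of it per cell cannot be told apart.

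Libraries held 1389579 to 4884282 fragments in genes, of which 1383 to 4506 fell in the ATG genes. The 10 transcripts encoded by mtDNA had 0 fragments in each of the 6 ρ0 libraries, against 6 and 4 in the ρ+ vector libraries. All libraries were made from poly(A) RNA, and the part of that in these low counts was not tested. In those ρ+ vector libraries 7 and 9 of the 10 were at 0 too. The direction went with the labels, but so few fragments cannot tell a single ρ0 library from a ρ+ library. PDE2 was 3.62-fold (95% interval 2.83 to 4.65) higher in ρ0 PDE2 than in ρ0 vector cells, and TIP41 was 12.1-fold (9.14 to 16.1) higher in ρ0 TIP41 than in ρ0 vector cells. URA3, the plasmid marker, differed between groups. It had 1915 and 2700 CPM in ρ0 PDE2 and 5658 and 7211 CPM in ρ0 TIP41 cells. In ρ0 vector cells it had 16950 and 15617 CPM, and in ρ+ vector cells 13417 and 14590 CPM. The part of this difference in the comparisons below was not tested. Summed transcripts of 13 haploid-specific genes, which a/α diploids keep low, were 94.1 to 145 CPM per library, and those of 12 early meiotic genes 143 to 191 CPM. The ρ0 vector libraries were the highest in both (139 and 145 CPM, and 184 and 191 CPM) and the ρ+ vector libraries the lowest (94.1 and 99.6 CPM, and 143 and 144 CPM), and the part of this in the results was not tested. Levels below are TMM-normalized CPM (fragments of a gene for a fixed total of fragments in a library), and log2 fold changes, with their standard error (SE), come from edgeR's quasi-likelihood test over all 5832 genes that passed a filter on low counts. A gene is called changed at a Benjamini-Hochberg adjusted p under 0.05. That fit held group alone, although same-numbered libraries went together across groups, so calls with the replicate number as a block are given beside. Of the 31 ATG genes 30 passed the filter, and ATG16 did not.

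The 31 genes lie on 13 chromosomes, with 6 on chromosome XII and 5 on chromosome XVI. Windows of 300 bases around the start codons (250 before it, 50 from it on) were read for sequences that regulators of autophagy, nutrient, stress and drug resistance genes are known to bind: GGCGGC, the core of the URS1 element bound by the repressor Ume6p; AGGGG, the stress response element of Msn2p and Msn4p; GATAAG, of the nitrogen regulators Gln3p and Gat1p; TGACTCA, of Gcn4p; and CCGCGG, of Pdr1p and Pdr3p. Matches on either strand were counted. The promoters of 3 genes are shown in full from the RefSeq R64 assembly: ATG32 and ATG22, with the largest differences between ρ0 and ρ+ cells, and ATG8, whose repression through URS1 is the best known case of transcriptional control in this family. Capitals mark the matches, and each sequence runs 5′ to 3′ on the gene's own strand.
ATG32, chrIX:75724-76023, minus strand: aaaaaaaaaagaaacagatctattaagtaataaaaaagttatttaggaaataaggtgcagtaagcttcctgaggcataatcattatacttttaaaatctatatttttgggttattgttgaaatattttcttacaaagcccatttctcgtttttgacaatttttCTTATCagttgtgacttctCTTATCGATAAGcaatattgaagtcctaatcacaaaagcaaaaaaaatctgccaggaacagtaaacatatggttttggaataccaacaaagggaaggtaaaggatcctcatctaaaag
ATG22, chrIII:56478-56777, minus strand: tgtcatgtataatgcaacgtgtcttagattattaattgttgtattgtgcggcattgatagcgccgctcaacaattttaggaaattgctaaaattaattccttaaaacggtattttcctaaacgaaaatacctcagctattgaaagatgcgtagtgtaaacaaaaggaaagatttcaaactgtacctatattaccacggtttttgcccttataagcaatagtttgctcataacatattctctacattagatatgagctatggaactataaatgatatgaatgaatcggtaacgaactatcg
ATG8, chrII:80682-80981, minus strand: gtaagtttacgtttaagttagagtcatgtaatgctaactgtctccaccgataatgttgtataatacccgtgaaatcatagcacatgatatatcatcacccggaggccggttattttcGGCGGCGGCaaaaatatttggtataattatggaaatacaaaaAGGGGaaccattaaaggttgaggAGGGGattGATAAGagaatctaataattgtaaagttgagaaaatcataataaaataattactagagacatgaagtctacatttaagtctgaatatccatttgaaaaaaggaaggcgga

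The ATG32 window held 3 matches to GATAAG, of which one pair sits back to back, and the ATG22 window held no match to any of the 5 sequences. ATG8 had a pair of overlapping GGCGGC matches at −133 and −130, counted back from the start codon, AGGGG at −91 and −68 and GATAAG at −60. No match in these windows overlapped a match to a different sequence. Among the 31 ATG windows, 9 (29.0%) held GATAAG, against 14.7% of 6001 windows of all protein-coding genes, 7 (22.6%) held AGGGG, against 21.6%, and 2 (6.45%), those of ATG8 and ATG19, held GGCGGC, against 5.13%. TGACTCA was in 2 (6.45%), ATG29 and ATG13, against 2.73% of all windows, and CCGCGG in 0, against 1.23%. In ATG13 the match at −6 runs into the start codon, as this stretch shows.
ATG13, TGACTCA on the opposite strand: ttgaatagcaTGAGTCAtggttgccga

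ATG transcripts were mostly less abundant than the typical gene. On the FPKM scale, which is per length and so allows genes to be compared, the 30 tested ATG genes had a median level of 22.7, against 56.3 over all genes tested. ATG27, a membrane protein that travels with Atg9p, was the highest, at 114 and 123 FPKM in ρ0 PDE2, 108 and 146 in ρ0 TIP41, 107 and 114 in ρ0 vector and 143 and 180 in ρ+ vector cells. Next came ATG5 (57.4 to 94.0 FPKM over the 8 libraries), whose product joins Atg12p in the conjugate that helps to load Atg8p, and ATG8 (50.4 to 82.6 FPKM), the ubiquitin-like coat of the growing membrane, whose ranges overlapped. The lowest were ATG9 (4.02 to 7.63 FPKM), the lipid scramblase of the vesicles that seed the membrane, ATG2 (5.13 to 10.8), the lipid transfer protein that works with Atg9p, and ATG16 (0.0252 to 15.8), which binds the Atg12p-Atg5p conjugate.

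**Figure D1:**
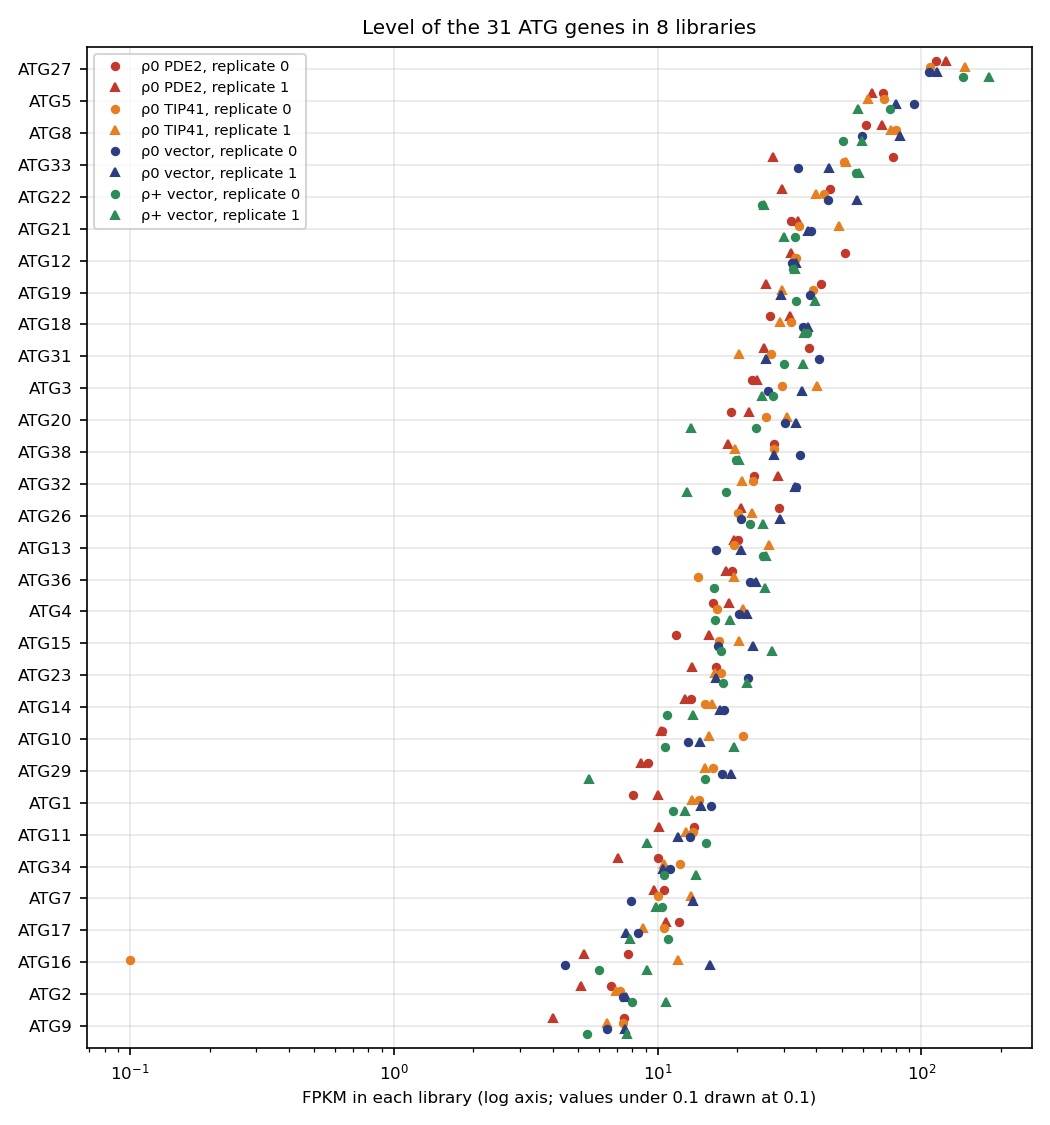
Level of each of the 31 ATG genes in each of the 8 libraries, in FPKM on a log axis, ordered by mean level; colours are groups, circles replicate 0 and triangles replicate 1. ATG27 leads in every library, at 107 to 180 FPKM, and most genes lie within a narrow band of libraries, while ATG16 spreads from 0.0252 to 15.8 FPKM.

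ATG16 rested on 0.02 to 12 fragments per library and shares its deposited locus with YMR158W-B, so that its values are uncertain and it was given no test. ATG29, which overlaps SET6, and ATG34, which shares a locus with YOL083C-A, are uncertain for the same reason, as no strand setting is named for the counting. For the other 28 genes the locus held no second gene.

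Loss of mtDNA was compared first, between ρ0 vector and ρ+ vector cells, to ask whether the autophagy genes take part in the response to it. ATG32, ATG22 and ATG20 were higher in ρ0 vector cells and ATG27 was lower, so that 4 of 30 ATG genes were called. Over all genes 13.9% were called, 7.49% higher and 6.38% lower, which makes the share of ATG genes called close to the background. DESeq2 and limma each called fewer ATG genes than this fit. With the replicate number as a block ATG13 was called as well, lower in ρ0 vector cells, where 19.9% of all genes were called. The median log2 fold change of the ATG genes was 0.10, against 0.01 over all genes, and 9 of 30 were negative, against 49.0% of all genes. That median was 0.31 without ρ0 vector replicate 0, 0.05 without ρ0 vector replicate 1 and 0.17 without ρ+ vector replicate 1, and with one library left out 8 to 14 of 30 or 31 genes were negative.

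ATG32 encodes the receptor in the outer mitochondrial membrane that marks mitochondria for selective autophagy, or mitophagy. It had 48.3 and 50.8 CPM in ρ0 vector cells, against 26.2 and 19.6 CPM in ρ+ vector cells. Every ρ0 vector value was above every ρ+ vector value. The difference was 2.07-fold (95% interval 1.55 to 2.75; log2 1.05, SE 0.19, adjusted p = 0.00219 by edgeR), and ATG32 was the one ATG gene called under each of 14 alternative analyses. Its neighbours on chromosome IX, SLN1 and PAN6, had log2 fold changes of −0.09 and 0.16 and were not called.

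ATG22 encodes a vacuolar membrane protein that exports amino acids released by the breakdown of cargo. It had 56.9 and 87.2 CPM in ρ0 vector cells, against 30.97 and 38.6 CPM in ρ+ vector cells, again with no overlap. The difference was 2.13-fold (1.54 to 2.93; log2 1.09, SE 0.21, adjusted p = 0.00404 by edgeR), and it was lost when ρ+ vector replicate 0 was left out (log2 0.90, adjusted p = 0.144). The other vacuolar member, the lipase gene ATG15, had a log2 fold change of −0.09.

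ATG20 encodes a sorting nexin that recycles membrane proteins and serves selective autophagy. It had 55.1 and 63.3 CPM in ρ0 vector cells, against 42.9 and 25.2 CPM in ρ+ vector cells. The groups did not overlap, but the ρ+ vector libraries lay far apart, and the log2 fold change of 0.70 (SE 0.21, adjusted p = 0.0424 by edgeR) was called under only 6 of 14 alternatives. Without ρ+ vector replicate 1 it was 0.46 (adjusted p = 0.205), and without ρ0 vector replicate 1 it was 0.59 (adjusted p = 0.201).

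ATG27 had 87.5 and 79.9 CPM in ρ0 vector cells, against 117 and 126 CPM in ρ+ vector cells. Both ρ0 vector values were below both ρ+ vector values, and the log2 fold change was −0.53 (SE 0.12, adjusted p = 0.0112 by edgeR), a level 30.6% lower. It was called under 9 of 14 alternatives. The fits without ρ0 vector replicate 1, ρ+ vector replicate 0 or ρ+ vector replicate 1 were among those that did not call it. RPL17B, a ribosomal protein gene that lies 688 bases away on the other strand, had a log2 fold change of −0.57 (adjusted p = 0.0448 by edgeR). PFD1, 165 bases away on the other side of ATG27, had −0.26 (adjusted p = 0.52 by edgeR). The neighbours of ATG22 (GID7 0.26, SRO9 −0.61) and of ATG20 (IWR1 0.27, TRM3 0.03) were not called.

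**Figure D2:**
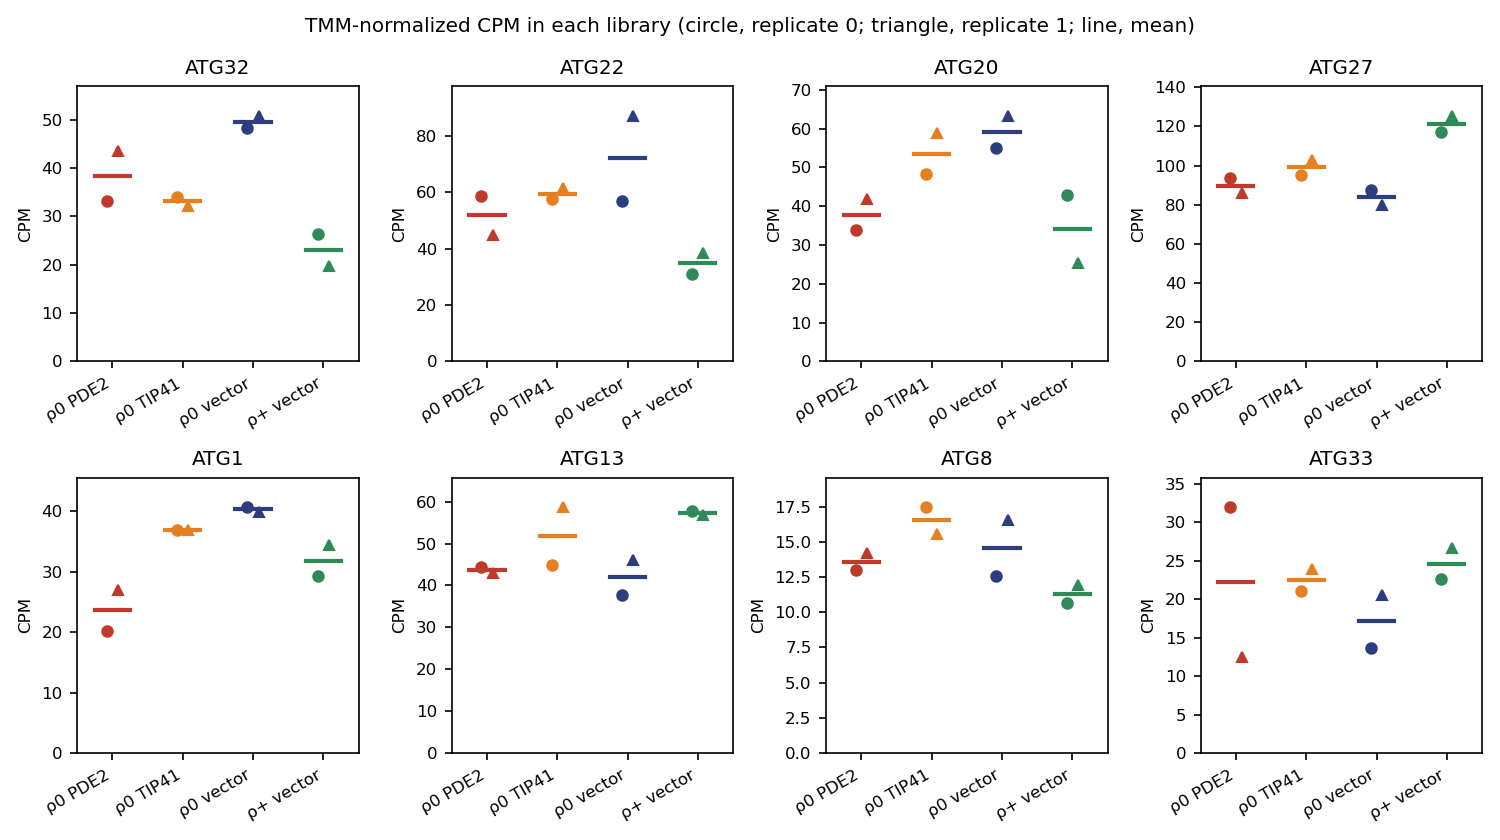
TMM-normalized CPM of 8 ATG genes in each library; circles are replicate 0, triangles replicate 1 and lines the mean of both, with axes that start at 0. ATG32, ATG22 and ATG20 lie higher and ATG27 lower in ρ0 vector than in ρ+ vector cells, and ATG1 is lowest in ρ0 PDE2 cells, at 20.1 and 27.0 CPM.

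The Atg1 complex, the lipid kinase subunits and the conjugation genes held no called gene without the block. Of the Atg1 kinase complex, which starts autophagy, none of 5 genes was called (1 at an unadjusted p under 0.05, edgeR), and ATG1 itself, the kinase, had 40.7 and 39.9 CPM in ρ0 vector cells, against 29.3 and 34.4 CPM in ρ+ vector cells (log2 0.37, SE 0.19, adjusted p = 0.205 by edgeR). ATG13, whose product is the complex's regulatory subunit and a target of TORC1 and PKA, had 37.8 and 46.0 CPM in ρ0 vector cells, against 57.8 and 56.8 CPM in ρ+ vector cells. That log2 fold change of −0.46 (SE 0.17) had an adjusted p of 0.0924 by edgeR, and of 0.0385 (log2 −0.48) with the replicate number as a block, under which 19.9% of all genes were called.

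ATG14 and ATG38, subunits that make the lipid kinase Vps34p specific to autophagy, had log2 fold changes of 0.60 (SE 0.29) and 0.64 (SE 0.28), neither of them called. ATG14 had 14.4 and 16.1 CPM in ρ0 vector cells, against 8.82 and 12.6 CPM in ρ+ vector cells, with no overlap. Of the conjugation genes, 0 of 7 tested were called (1 at an unadjusted p under 0.05, edgeR), and ATG8 had 12.6 and 16.5 CPM in ρ0 vector cells, against 10.7 and 11.9 CPM in ρ+ vector cells (log2 0.39, 95% interval −0.19 to 0.97). ATG5 had 64.5 and 61.7 CPM in ρ0 vector cells, against 51.7 and 44.2 CPM in ρ+ vector cells (log2 0.37, SE 0.15, adjusted p = 0.111 by edgeR).

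ATG33, which encodes a second outer membrane protein needed for mitophagy, had values in the other direction from ATG32, with a wide interval. It had 13.7 and 20.6 CPM in ρ0 vector cells, against 22.6 and 26.6 CPM in ρ+ vector cells (log2 −0.50, 95% interval −1.32 to 0.33). ATG9 had 17.3 and 23.0 CPM in ρ0 vector cells, against 14.6 and 23.1 CPM in ρ+ vector cells, which overlapped, and ATG2 had a log2 fold change of −0.27 (SE 0.20). For 23 of the 30 genes the 95% interval of the fold change lay within 2-fold in either direction. Both libraries of ρ0 vector cells lay above both of ρ+ vector cells for 11 ATG genes and below them for 4, while 28.7% of all genes were so ordered upwards and 27.9% downwards.

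Overexpression of Pde2p was compared with the empty vector in ρ0 cells, to ask how autophagy transcripts stand when PKA activity is lowered. Without the replicate block no ATG gene was called, where 2.3% of all genes (134) were, and 6 ATG genes had an unadjusted p under 0.05 (edgeR). With the replicate number as a block ATG1 was called, lower in ρ0 PDE2 cells, where 9.79% of all genes were called. Neither DESeq2 nor limma called any. The ρ0 vector libraries used here are those set against ρ+ vector cells above and ρ0 TIP41 cells below, so the comparisons are not independent. Most of the 30 pointed down: 25 had negative log2 fold changes, with a median of −0.33, whereas 53.1% of all genes were negative, with a median of −0.02. Across the libraries the ATG genes took 0.0861% and 0.0806% of fragments in ρ0 PDE2 cells and 0.0984% and 0.114% in ρ0 vector cells, which did not overlap.

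Both ρ0 PDE2 libraries lay below both ρ0 vector libraries for 17 of the 30 genes and above them for 1, ATG17, a scaffold of the Atg1 complex. Of all genes 26% were so ordered downwards and 23.8% upwards. Within pairs of the same replicate number the count of lower ATG genes was 18 of 30 for replicate 0 and 28 of 30 for replicate 1, against 52.1% and 52.3% of all genes. When each library was left out in turn, 22 to 28 of 30 or 31 genes were negative. Across all genes the log2 fold change with PDE2 was related to gene length (Spearman's rho = −0.32) and to level (rho = 0.23), in libraries that differ in depth. ATG genes had a median coding length of 1308 bases, against 1272 over all genes, and a median level of 26.0 CPM, against 62.4 CPM, and the part of these in the shift was not tested.

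The lowest p belonged to ATG1. It had 20.1 and 27.0 CPM in ρ0 PDE2 cells, against 40.7 and 39.9 CPM in ρ0 vector cells, and the ρ0 PDE2 values were the lowest of all 8 libraries. The log2 fold change was −0.74 (SE 0.19, 95% interval −1.16 to −0.33), with an adjusted p of 0.0609 by edgeR. With the replicate number as a block it was −0.75 with an adjusted p of 0.014 (edgeR), and ATG1 was then the one ATG gene called, where 9.79% of all genes were. Its partner ATG13 had 44.4 and 42.9 CPM in ρ0 PDE2 cells, against 37.8 and 46.0 CPM in ρ0 vector cells, with a log2 fold change of 0.06. The neighbours of ATG1, GTS1 and TOS3, had log2 fold changes of −0.21 and −0.67 with PDE2 (adjusted p = 0.462 and 0.254 by edgeR). With loss of mtDNA both neighbours were called higher (log2 0.49 and 2.22, adjusted p = 0.0424 and 0.00434 by edgeR).

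ATG32 had 33.1 and 43.6 CPM in ρ0 PDE2 cells, against 48.3 and 50.8 CPM in ρ0 vector cells, with no overlap. Its log2 fold change of −0.34 (SE 0.19, adjusted p = 0.321 by edgeR) did not pass. ATG22 had 58.6 and 45.0 CPM in ρ0 PDE2 cells, against 56.9 and 87.2 CPM in ρ0 vector cells, which overlapped, and its log2 fold change of −0.49 (adjusted p = 0.212 by edgeR) was called only when ρ0 vector replicate 0 was left out (log2 −0.77, adjusted p = 0.026). ATG20 had 33.7 and 41.9 CPM in ρ0 PDE2 cells, against 55.1 and 63.3 CPM in ρ0 vector cells, and did not pass (log2 −0.62, SE 0.22, adjusted p = 0.128 by edgeR).

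Among the remaining genes ATG8 showed little difference, at 13.02 and 14.2 CPM in ρ0 PDE2 cells, against 12.6 and 16.5 CPM in ρ0 vector cells (log2 −0.08, 95% interval −0.66 to 0.49). ATG33 scattered widely, at 32.0 and 12.5 CPM in ρ0 PDE2 cells, against 13.7 and 20.6 CPM in ρ0 vector cells. ATG9 had 19.5 and 12.2 CPM in ρ0 PDE2 cells, against 17.3 and 23.0 CPM in ρ0 vector cells. The most negative fold change, that of ATG29 (log2 −1.05, adjusted p = 0.203 by edgeR), rested on 7 and 13 fragments in ρ0 PDE2 cells, against 23 and 24 in ρ0 vector cells. For 20 of the 30 genes the 95% interval lay within 2-fold in either direction, and for the remaining 10, ATG1 and ATG20 among them, it passed 2-fold, so that larger differences were not excluded.

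**Figure D3:**
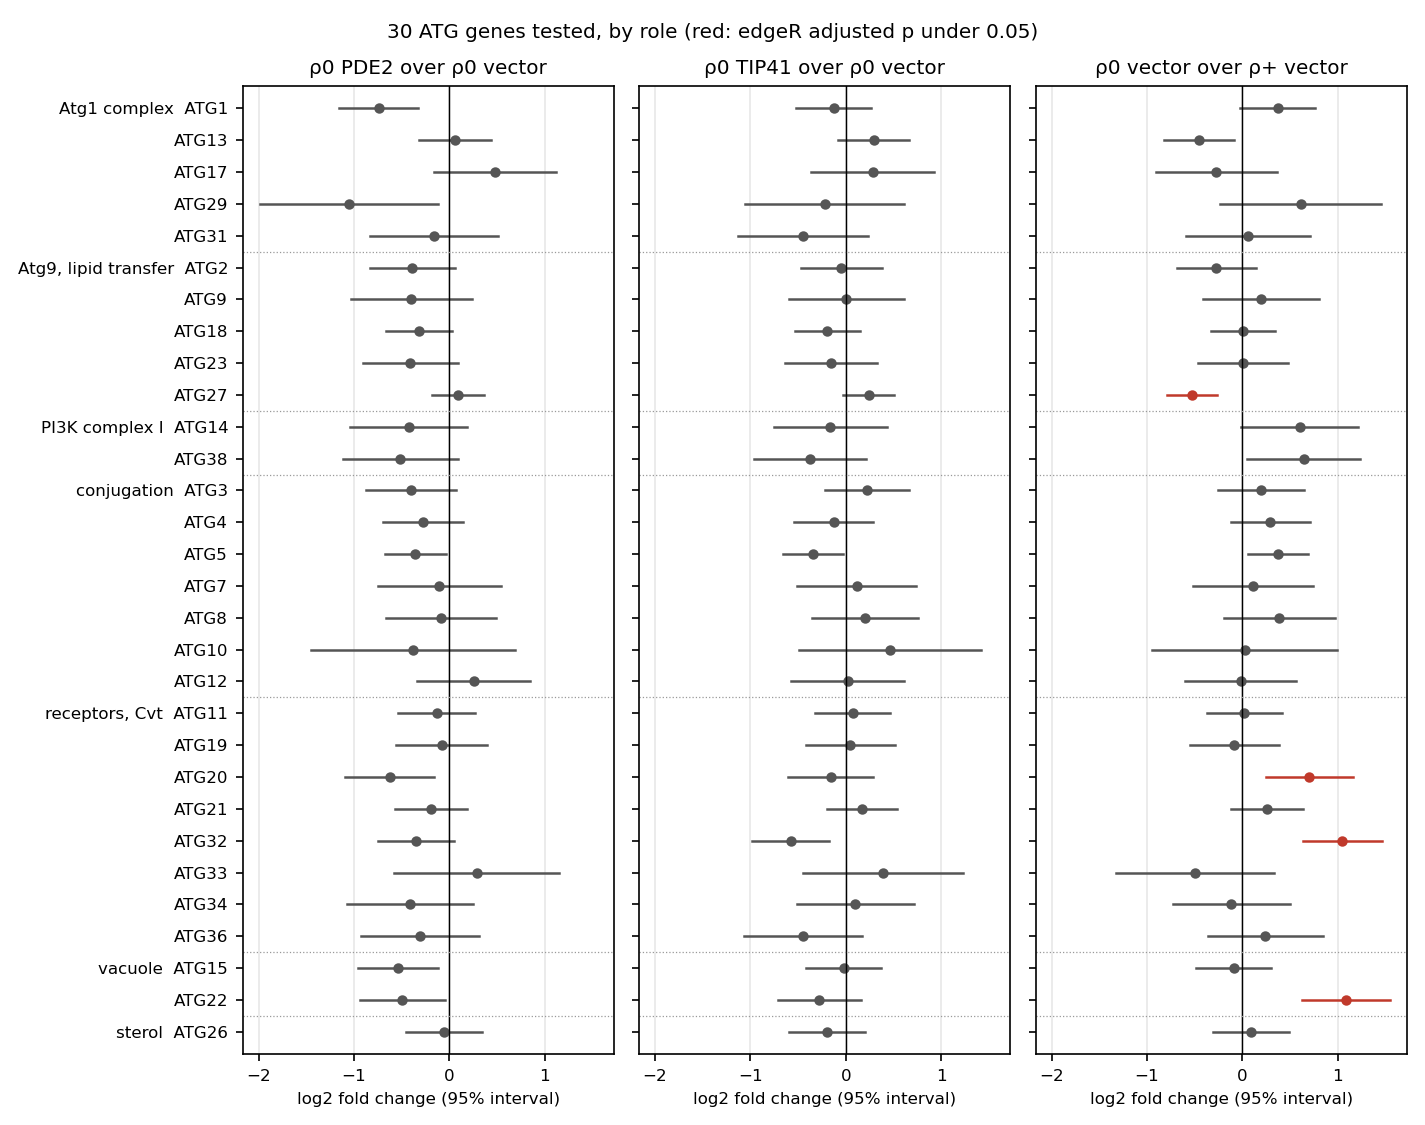
Log2 fold change of the 30 tested ATG genes with its 95% interval, grouped by role, for ρ0 PDE2 over ρ0 vector, ρ0 TIP41 over ρ0 vector and ρ0 vector over ρ+ vector cells; red marks an edgeR adjusted p under 0.05. The PDE2 panel leans to the left of 0 (25 of 30 genes) with no gene in red, the TIP41 panel is centred (16 of 30), and ATG20, ATG22, ATG27 and ATG32 are red in the mtDNA panel.

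Overexpression of Tip41p was set against the same ρ0 vector cells. No ATG gene was called, where 0.412% of all genes were (24), nor with the replicate number as a block, where 1.95% were, and 2 ATG genes had an unadjusted p under 0.05 (edgeR). Neither DESeq2 nor limma called any. Of the 30 genes 16 were negative, against 48.6% of all genes, with a median log2 fold change of −0.03, against 0.01. The median ran from −0.11 without ρ0 vector replicate 0 to 0.02 without ρ0 vector replicate 1. Both ρ0 TIP41 libraries lay below both ρ0 vector libraries for 7 ATG genes and above them for 5, where 19% and 22.9% of all genes did. In 25 of 30 genes the 95% interval stayed within 2-fold.

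ATG32 came closest to a change with TIP41. It had 34.0 and 32.2 CPM in ρ0 TIP41 cells, against 48.3 and 50.8 CPM in ρ0 vector cells (log2 −0.58, SE 0.19, adjusted p = 0.318 by edgeR). The groups did not overlap, and both ρ0 TIP41 values remained above the 26.2 and 19.6 CPM of ρ+ vector cells. ATG5, the other gene with an unadjusted p under 0.05, had 50.5 and 48.9 CPM in ρ0 TIP41 cells, against 64.5 and 61.7 CPM in ρ0 vector cells (log2 −0.34, adjusted p = 0.429 by edgeR). ATG1 had 36.9 and 36.9 CPM in ρ0 TIP41 cells, a log2 fold change of −0.13 from ρ0 vector cells (95% interval −0.52 to 0.26).

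Set against each other directly, ρ0 PDE2 and ρ0 TIP41 cells had no ATG gene called, where 0.394% of all genes were, and 3 ATG genes had an unadjusted p under 0.05 (edgeR). With the replicate number as a block none was called either, where 16 of 5832 genes were called higher and 38 lower. The median log2 fold change was −0.22, against −0.01 over all genes, and 24 of 30 were negative, against 51.0% of all genes. The median was −0.11 without ρ0 PDE2 replicate 1 and −0.14 without ρ0 TIP41 replicate 1. Both ρ0 PDE2 libraries lay below both ρ0 TIP41 libraries for 16 of the 30 genes and above them for 1, where 19.7% and 18.1% of all genes did. ATG1 had 20.1 and 27.0 CPM in ρ0 PDE2 cells, against 36.9 and 36.9 CPM in ρ0 TIP41 cells. The estimate for ATG1 was −0.61 (SE 0.20, 95% interval −1.04 to −0.19, adjusted p = 0.424 by edgeR). For ATG3, the enzyme that passes Atg8p to its lipid, it was −0.62 (SE 0.22, adjusted p = 0.52 by edgeR).

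The ρ0 cells with either plasmid were also compared with ρ+ vector cells. In ρ0 PDE2 cells no ATG gene was called, where 5.13% of all genes were, and 6 had an unadjusted p under 0.05 (edgeR). With the replicate number as a block 4 were called, where 9.65% of all genes were: ATG32 was higher (log2 0.69, adjusted p = 0.0276 by edgeR), and ATG2 (−0.66, adjusted p = 0.0313), ATG15 (−0.63, adjusted p = 0.0481) and ATG27 (−0.43, adjusted p = 0.0387) were lower. In ρ0 TIP41 cells ATG22 was the one ATG gene called, where 5.25% of all genes were, at 57.4 and 61.3 CPM, against 30.97 and 38.6 CPM in ρ+ vector cells (log2 0.81, SE 0.22, adjusted p = 0.0485 by edgeR). That call held in 6 of 14 alternatives. One of them was the replicate block, in which ATG22 was again the one ATG gene called. There 360 of 5832 genes were called higher and 199 lower.

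RefSeq names 4 more genes ATG that the deposited table lists under older names, so that the naming rule passes them by. They were looked up after the members' values were known and are given beside them for that reason. YOR152C (ATG40), a receptor for autophagy of the endoplasmic reticulum, had 37.9 and 50.03 CPM in ρ0 PDE2 cells, 40.3 and 40.5 CPM in ρ0 TIP41 cells, 61.6 and 76.3 CPM in ρ0 vector cells and 9.84 and 11.2 CPM in ρ+ vector cells. The ρ+ vector values were far below all others, and the overexpressing cells lay between both vector groups without overlap. With loss of mtDNA it was 6.69-fold (95% interval 4.88 to 9.16; log2 2.74, SE 0.21) higher, a larger estimate than for any of the 30 tested members, and it was called under all 14 alternatives.

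YOR152C (chrXV:617518-618288, minus strand) shares its upstream region of 1551 bases with PDR5, the drug efflux pump gene that points the other way. That region held 5 matches to CCGCGG, and none of them fell in the 300-base window of YOR152C. Regions between genes were read in this way for YOR152C and ICY2 alone, so no share over other genes stands beside that count. The upstream region of ICY2, 979 bases towards RPL36B, held 1 match, and the region on the other side of each gene held 0. The part of the 5 matches in the level of YOR152C was not tested. PDR5 was higher with loss of mtDNA (log2 3.15, SE 0.19), and lower with PDE2 (−0.78, SE 0.17, adjusted p = 0.0356 by edgeR) and with TIP41 (−1.21, SE 0.18, adjusted p = 0.00462 by edgeR). YOR152C had log2 fold changes of −0.62 with PDE2 and −0.77 with TIP41, with adjusted p of 0.0732 and 0.116 (edgeR), and of 0.0131 and 0.00812 with the replicate number as a block. The gene on its other side, RPB2, had a log2 fold change of 0.01 with loss of mtDNA.

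ICY2 (ATG41), whose product binds Atg9p, had 15.4 and 18.9 CPM in ρ0 PDE2 cells, 15.2 and 30.1 CPM in ρ0 TIP41 cells, 35.3 and 91.6 CPM in ρ0 vector cells and 11.9 and 9.82 CPM in ρ+ vector cells. It was 5.58-fold (2.05 to 15.2) higher with loss of mtDNA (log2 2.48, SE 0.58, adjusted p = 0.0458 by edgeR), a wide interval that follows the spread of the ρ0 vector libraries, and it was called in 7 of 14 alternatives. With PDE2 and TIP41 its log2 fold changes were −1.85 and −1.53, with adjusted p of 0.154 and 0.429 (edgeR), and of 8.03e-04 and 0.00695 with the block. YBR139W (ATG42), a vacuolar carboxypeptidase (log2 0.18 with loss of mtDNA), and YLR312C (ATG39), a receptor for autophagy of the nucleus (log2 −0.75), were not called. YLR312C had 7.92 and 7.28 CPM in ρ0 TIP41 cells, against 3.60 and 1.61 CPM in ρ0 vector cells, with no overlap (log2 1.51, SE 0.48, adjusted p = 0.299 by edgeR), on 4 to 24 fragments per library.

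**Figure D4:**
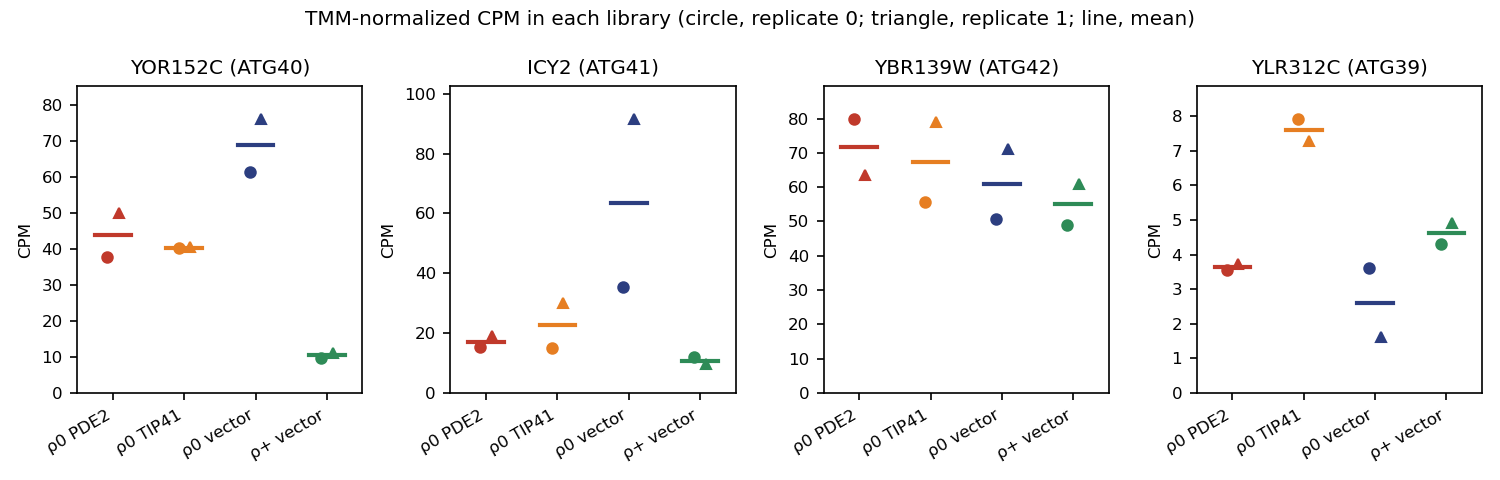
TMM-normalized CPM in each library of the 4 genes that RefSeq names ATG39 to ATG42; circles are replicate 0, triangles replicate 1 and lines the mean of both, with axes that start at 0. YOR152C runs at 61.6 and 76.3 CPM in ρ0 vector cells, against 9.84 and 11.2 CPM in ρ+ vector cells, and ICY2 separates its ρ0 vector libraries widely, at 35.3 and 91.6 CPM.

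Genes that work with the ATG proteins were counted in the same tests, in which 13.9% of all genes were called with loss of mtDNA, 2.3% with PDE2 and 0.412% with TIP41. With the replicate number as a block these shares were 19.9%, 9.79% and 1.95%. Of 22 autophagy partners without an ATG name (the lipid kinase subunits VPS34, VPS15 and VPS30, tethering and fusion factors, and the mitochondrial division genes DNM1 and FIS1), 1 was called with loss of mtDNA and 0 with PDE2 or TIP41 (edgeR), where 3 and 2 had an unadjusted p under 0.05. That gene was YKT6, a fusion SNARE (log2 −0.51, adjusted p = 0.0179 by edgeR). With the block YKT6 and YPT7, a vacuolar Rab GTPase, were higher with PDE2 (log2 0.47 and 0.55, adjusted p = 0.0177 and 0.0167 by edgeR). Of 10 vacuolar hydrolases and cargo proteins of the cytoplasm-to-vacuole pathway, 4 were called with loss of mtDNA. AMS1, the mannosidase that travels as cargo, and PRB1, proteinase B, were higher (log2 0.70 and 0.55), and APE4, an aminopeptidase, and CPS1, a carboxypeptidase, were lower (−0.58 and −0.72), all at adjusted p of 0.00774 to 0.0214 (edgeR). With PDE2, CPS1 was higher (log2 0.87, adjusted p = 0.0193 by edgeR), the one gene of this list called, and with TIP41 none was (edgeR; 1 at an unadjusted p under 0.05). The block added PRB1, lower with PDE2 (log2 −0.52, adjusted p = 0.0153), and APE1, the main cargo, higher with loss of mtDNA (0.49, adjusted p = 0.0489).

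Among 13 transcription regulators described for ATG genes, MSN4, which encodes a stress activator held back by PKA, was the one called with loss of mtDNA. It had 48.3 and 43.6 CPM in ρ0 vector cells, against 103 and 75.7 CPM in ρ+ vector cells (log2 −0.99, SE 0.18, adjusted p = 0.002 by edgeR). It had 77.5 and 56.8 CPM in ρ0 PDE2 cells and 70.3 and 71.2 CPM in ρ0 TIP41 cells, all above both ρ0 vector libraries. None was called with PDE2 or TIP41, and 4 and 1 had an unadjusted p under 0.05 (edgeR). With the block MSN4 was higher with PDE2 and with TIP41 (log2 0.53 and 0.62, adjusted p = 0.0365 and 0.0367 by edgeR), and RPH1, a repressor of ATG genes, was lower with PDE2 (−0.47, adjusted p = 0.0239). GIS1, its paralog, was lower with loss of mtDNA (−0.53, adjusted p = 0.0362) in that fit. Of 11 tested early meiotic genes, IME2 was higher and IME1 lower with loss of mtDNA (log2 0.89 and −1.12, adjusted p = 0.0142 and 0.0302 by edgeR), and none was called with PDE2 or TIP41 (2 and 3 at an unadjusted p under 0.05). The block added MEI4 and RED1, higher with loss of mtDNA (log2 0.99 and 0.57, adjusted p = 0.0448 and 0.0301 by edgeR), and RED1, lower with TIP41 (−0.77, adjusted p = 0.0248). Of 20 PKA and TORC1 components, PDE1, the second cAMP phosphodiesterase gene, was higher and RAS1 lower with loss of mtDNA (log2 0.99 and −0.65, adjusted p = 0.023 and 0.00662 by edgeR). With PDE2 and TIP41 the one called in each was the overexpressed gene itself, and with the block RAS1 was also higher with PDE2 (log2 0.45, adjusted p = 0.0243 by edgeR).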

How the data were processed

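Poly(A) RNA of 8 cultures, in 4 groups of 2, was sequenced. Per the labels and the study's methods, the authors aligned fragments with TopHat2 2.0.14 to genome R64 and derived estimated counts and FPKM values for every gene in each library with Cuffdiff 2.2.1.1. The deposited FPKM values were scaled for depth and gene length by the authors. The deposited estimated counts were raw, and 12.3% of those above 0 were not whole (tolerance 0.001). The authors' own fold changes, p-values and q-values were also deposited and were not used. The Cuffdiff command names no library type although the kit marks strand, so overlapping and antisense genes are uncertain.

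Estimated counts were rounded and tested with edgeR 4.0.16 in R 4.3.3: TMM scaling, filterByExpr, a quasi-likelihood fit of group over all 8 libraries (4 residual degrees of freedom), with p-values adjusted by Benjamini-Hochberg across 5832 genes. The SE was derived from that fit, as the absolute log2 fold change over the square root of the F statistic. The 95% intervals were built from this SE with a t quantile, so both are approximate. Rank correlations across genes are descriptions, as genes are not independent replicates. Members and lists were chosen with earlier results of these data known. Genes given in full were those called in any comparison, those called with a replicate block in the comparisons of ρ0 vector with ρ+ vector, PDE2 and TIP41, 6 genes chosen by role (ATG1, ATG8, ATG9, ATG14, ATG32 and ATG33), and the 3 highest and 3 lowest in mean FPKM; others named for their size were chosen after their values were seen. Deviations of same-numbered libraries from their group means correlated at 0.186 to 0.545 in all 6 pairs of groups (5464 genes), so the numbers were taken to pair the samples. The main fit did not use this pairing, and the block was run as an alternative. No source ties an experimenter to a number. The block left 3 residual degrees of freedom. Replicates differed beyond counting noise (chi-square per degree of freedom 4.60 to 10.9). Alternatives were DESeq2 1.42.0, limma 3.58.1 on log2(FPKM + 1), DESeq2-style size factors in edgeR, no filter (6504 genes), only the groups compared, the block, and leaving out each library. For every comparison some of the libraries left out belonged to groups not compared. Those fits kept all the libraries compared and are weaker checks. RefSeq R64 windows covered 250 bases before the start codon and 50 from it on, and 31 of 31 members matched.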

Additional observations from a re-analysis of the deposited data

How the results depend on the processing

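Of 277 values for 20 named gene results under up to 14 alternatives, 239 kept their direction and side of the threshold, 22 lost the call, 13 gained it and 3 changed sign. Most of the 20 results were not called in the main fit, and only a called result could lose the call. The 239 therefore do not measure how stable the calls were. With loss of mtDNA 4 genes were called, against 2 by DESeq2, 2 by limma and 2 to 4 with one library left out. With PDE2 0 were called, against 1 with the replicate block and 0 to 1 with one library left out. For ρ0 PDE2 against ρ+ vector cells 0 were called, against 4 with the replicate block, 2 from only the groups compared and 0 to 2 with one library left out. For ρ0 TIP41 against ρ+ vector cells 1 was called, against 0 with DESeq2-style size factors in edgeR, 0 by DESeq2, 0 by limma and 0 to 1 with one library left out. The log2 fold change of ATG9 with loss of mtDNA ran from −0.20 to 0.46 with one library left out, and that of ATG22 with TIP41 from −0.56 to 0.057. With 2 libraries a group, intervals were wide for genes with few fragments, such as ATG29 (4 to 35 per library).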
